A study of Mus musculus with 2 samples.

Results

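GOBLET-PRE and GP are 2 of the 12 classes to which the authors assigned cells of the mouse ileal crypt. The members were taken by class name from the deposited cell table: 3783 GOBLET-PRE cells and 1514 GP cells, together 5297 of 11562 listed cells (45.8%). All cells came from Atoh1CreER-T2;R26RTom mice labelled wild type (WT), of an age that the sources here do not state. In these mice a tamoxifen-dependent Cre recombinase made in Atoh1-expressing cells switches on a red reporter (Tom) that the progeny keep, so both classes carry the same alleles and the same label. Both were exposed to tamoxifen, in 2 doses of 1 mg/mL given 24 h apart, and crypt cells were collected 12 h after the second dose, sorted as live Tom+ cells and sequenced as 2 10x Genomics 3′ libraries, replicate 1 and replicate 2. The sort limits the sample to the recent progeny of Atoh1-expressing cells. The labels do not say that the libraries came from separate animals, so p-values rest only on the spread between these libraries, which may be technical. What GP stands for is not stated in the labels or files.

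Goblet cells make the mucus of the gut. Their granules hold the gel-forming mucin Muc2 with the proteins that pack or trim it (Fcgbp, Clca1, Zg16, Tff3), and mucin glycans are added in the Golgi before storage. They arise from crypt progenitors in which Atoh1, the transcription factor of secretory fate, escapes Notch inhibition, and such progenitors leave the cell cycle as they fill with secretory product. Paneth cells, the other main granule-bearing type of the crypt, make lysozyme and defensins from related progenitors. The comparison addresses how cells that the authors named goblet precursors differ from GP cells of the same sort.

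Replicate 1 held 2318 GOBLET-PRE cells and 685 GP cells, and replicate 2 held 1465 and 829. GOBLET-PRE made up 43.7% (95% exact Clopper-Pearson interval 42.4 to 45.0) of the listed cells of replicate 1 and 23.4% (22.4 to 24.5) of replicate 2, and GP 12.9% (12.0 to 13.8) and 13.2% (12.4 to 14.1). The intervals cover counting error only. The GP share was thus alike in the 2 libraries and the GOBLET-PRE share was not. Unique molecular identifiers (UMIs) count captured RNA molecules, and their sums were 13770059 and 5031350 in GOBLET-PRE (replicate 1, then replicate 2, here and below) and 3077761 and 2480469 in GP. The median cell had 6104 and 3369 UMIs in GOBLET-PRE, against 4664 and 3008 in GP, so the GOBLET-PRE cells were deeper in both libraries. The median share of mitochondrial UMIs was 3.80% and 3.57% in GOBLET-PRE and 4.38% and 3.80% in GP. The libraries shared 12 listed cell barcodes, of which 5 lay in these 2 classes.

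Levels are given per class and library as CPM (counts scaled to a common total of UMIs) after scaling with TMM factors. How the classes were assigned is not described in the sources used here. They were given to these same cells, so the p-values are no independent evidence that the classes differ. The p-values weigh a difference against the spread between the 2 libraries, estimated from all 12 classes together. In sums over cells, fewer cells that make an RNA and less of it per cell cannot be told apart. Genes used as cell type markers are given as a description. Where a marker is also on a gene list or among the regulators named, its test is likewise no independent evidence.

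The name GOBLET-PRE was checked against 14 goblet markers. Zg16, a lectin of the mucus that binds Gram-positive bacteria (ENSMUSG00000049350, chromosome 7, 127050156 to 127087328, - strand), had 30278 and 21628 CPM in GOBLET-PRE, against 3325 and 3250 CPM in GP, and 260466 and 236698 CPM in GOBLET, the authors' class of goblet cells, whose 42 and 84 cells held 154169 and 232707 UMIs. Muc2 (ENSMUSG00000025515, chromosome 7, 141690340 to 141754693, + strand) had 10306 and 10422 CPM in GOBLET-PRE, against 4139 and 4770 CPM in GP. For both genes the 2 GOBLET-PRE sums lay above the 2 GP sums. Fcgbp, which cross-links mucin, had 9555 and 11117 CPM in GOBLET-PRE, against 4331 and 5434 CPM in GP. The protease Clca1 had 5627 and 8798 CPM in GOBLET-PRE, against 2099 and 3891 CPM in GP. Tff3, a trefoil peptide of the mucus, had 39256 and 36875 CPM in GOBLET-PRE, against 18954 and 19806 CPM in GP. These mucus genes were thus abundant in the GP sums too, free RNA included, and higher in GOBLET-PRE in both libraries. Agr2, the disulfide isomerase needed for Muc2 folding, had 19135 and 14175 CPM in GOBLET-PRE, against 13633 and 11113 CPM in GP, the smaller step. In all, 13 of the 14 were higher in both libraries, the calpain Capn9 with 71 and 75.6 CPM in GOBLET-PRE, against 19.1 and 26.8 CPM in GP. The chemokine Ccl9 was the exception, with 141 and 198 CPM in GOBLET-PRE, against 204 and 315 CPM in GP.

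Added together, the 14 goblet markers came to 149747 and 141550 CPM in GOBLET-PRE, against 61493 and 66605 CPM in GP. The same sum was 44520 and 42537 CPM in SEC-PRO, a class with high levels of cycling markers, and 560665 and 544329 CPM in GOBLET. Among these classes, GOBLET-PRE therefore stood between GP and GOBLET in level, and GP between SEC-PRO and GOBLET-PRE. Other classes had sums near or above that of GP. The sum was 89794 and 95765 CPM in PANETH-PRE, 65337 and 132112 CPM in PANETH and 56536 and 61062 CPM in ENTERO-PRO. The sum thus did not set GP apart from PANETH-PRE or from ENTERO-PRO. For PANETH the scaled sum cannot decide this, since the TMM factors were 0.229 and 0.256 in PANETH, against 1.28 and 1.25 in GP. Unscaled Zg16 was at 245 and 421 CPM in PANETH, against 4256 and 4055 CPM in GP. Unscaled Muc2 was at 976 and 1728 CPM in PANETH, against 5297 and 5952 CPM in GP. Both genes were thus lower in PANETH than in GP before scaling. RNA outside cells gives a baseline: barcodes with at most 50 UMIs, taken as free RNA, held 65381 and 49739 CPM of goblet markers before scaling. The unscaled sums were 165436 and 156007 CPM in GOBLET-PRE and 78934 and 83393 CPM in GP, above the free RNA of their own library in both classes. This did not hold for each gene. Before scaling, Zg16 had 4256 and 4055 CPM in GP, below the 9515 and 5685 CPM of free RNA. In GOBLET-PRE it had 33362 and 23765 CPM. Muc2 had 5297 and 5952 CPM in GP, against 4874 and 3994 CPM in free RNA. The part of free RNA in the GP levels was not tested.

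**Figure D1:**
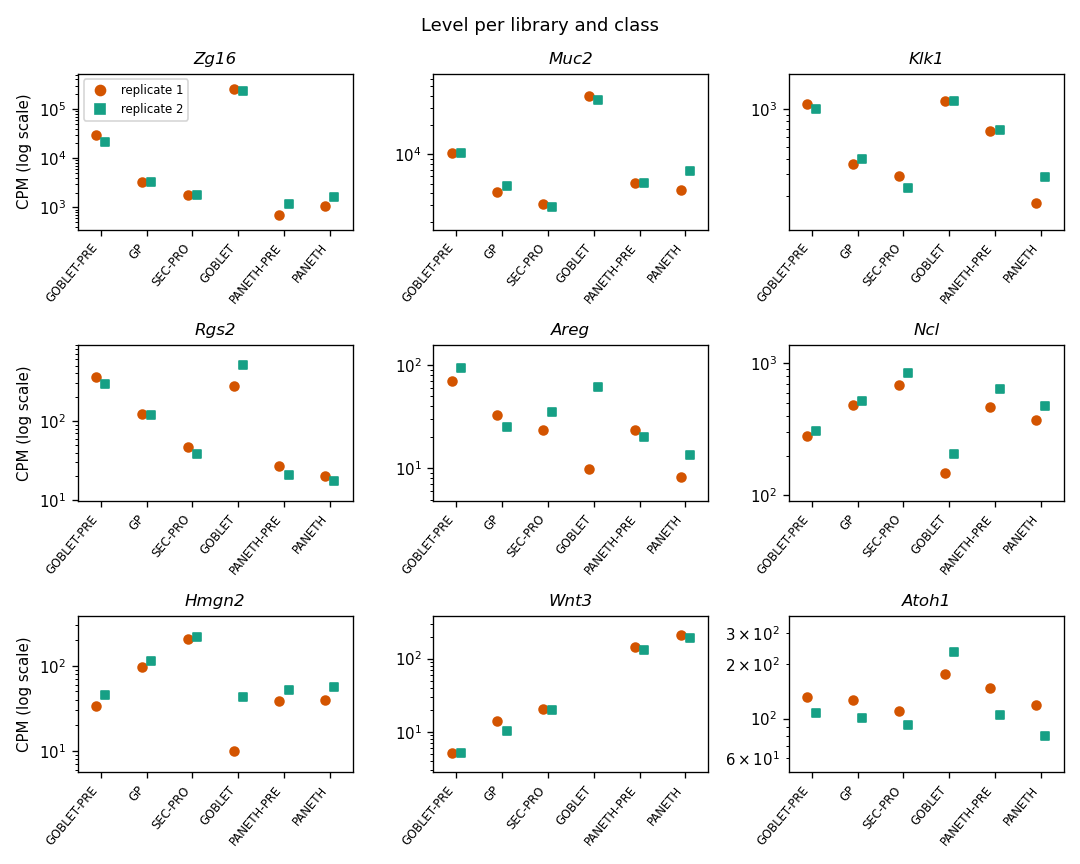
Level of 9 genes in 6 of the authors' classes (CPM after TMM scaling, log axis), 1 point per library; GOBLET-PRE and GP are the first and second class of each panel and a library at 0 is not drawn. Zg16, Muc2, Klk1, Rgs2 and Areg were higher in both GOBLET-PRE sums, Ncl, Hmgn2 and Wnt3 were lower in both, and the Atoh1 values overlapped.

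The difference could be followed in single cells once each cell was thinned to 2000 UMIs, which left out 64 and 176 GOBLET-PRE cells and 85 and 182 GP cells. The median cell then held 37 and 25 Zg16 UMIs in GOBLET-PRE and 1 and 1 in GP. The spread within GOBLET-PRE was wide, with a 10th percentile of 0 and 1 and a 90th percentile of 174 and 130 Zg16 UMIs, and the 90th percentile of GP was 26 and 25.4. The classes overlapped: 6.33% and 10.05% of GP cells lay above the GOBLET-PRE median. Muc2 was more even, with a median of 21 and 21 UMIs per thinned GOBLET-PRE cell and 9 and 10 per thinned GP cell. Tff3 had medians of 83 and 77 in GOBLET-PRE and 45 and 46 in GP. At least 1 Zg16 UMI was found in 88.7% (87.4 to 90.01) and 90.9% (89.2 to 92.4) of GOBLET-PRE cells and in 64.7% (60.7 to 68.5) and 68.2% (64.4 to 71.7) of GP cells. Tuft cells, which should not make this lectin, carried one in 42.3% and 42.5% of cells (median depth 3403 and 2317 UMIs before thinning), so a single Zg16 UMI was common there too. Unthinned, the shares were 95.2% and 92.8% of GOBLET-PRE cells and 81.5% and 73.3% of GP cells.

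**Figure D2:**
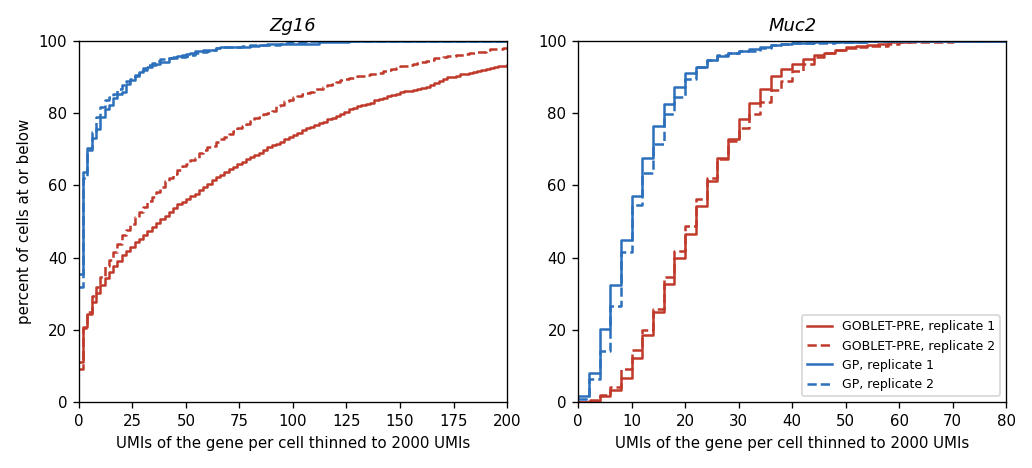
Cumulative share of cells by the UMIs of Zg16 (left) and Muc2 (right) per cell thinned to 2000 UMIs, for GOBLET-PRE (red) and GP (blue) in replicate 1 (solid) and replicate 2 (dashed). The Muc2 curves are shifted as a whole, with medians of 21 and 21 in GOBLET-PRE and 9 and 10 in GP, while the Zg16 curves of GOBLET-PRE rise slowly across the axis.

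Markers of other cells were low or shared. The 14 measured Paneth markers summed to 14428 and 25118 CPM in GOBLET-PRE and 11260 and 20803 CPM in GP, far from the 306505 and 281813 CPM in PANETH-PRE (Paneth precursors), and, before scaling, free RNA held 119641 and 210797 CPM of them, against 15940 and 27683 CPM in GOBLET-PRE and 14454 and 26046 CPM in GP. Lyz1, the Paneth lysozyme, had 512 and 823 CPM in GOBLET-PRE, against 517 and 776 CPM in GP, and the groups overlapped. The 6 cycling markers summed to 71.5 and 85.7 CPM in GOBLET-PRE and 108 and 119 CPM in GP, against 1546 and 1433 CPM in SEC-PRO. The 11 enterocyte markers summed to 1332 and 1001 CPM in GOBLET-PRE, against 711 and 603 CPM in GP, most of it Fabp2 and Krt20. The 12 enteroendocrine markers came to 249 and 174 CPM in GOBLET-PRE and 179 and 153 CPM in GP, with the tachykinin gene Tac1 at 85.1 and 42 CPM in GOBLET-PRE, against 29.97 and 14.2 CPM in GP. The 8 tuft markers summed to 6.05 and 4.33 CPM in GOBLET-PRE and 9.12 and 6.12 CPM in GP. The 10 immune markers stayed at 0.197 and 3.07 CPM in GOBLET-PRE and 0 and 4.51 CPM in GP, the 10 stromal markers at 1.78 and 0.902 CPM in GOBLET-PRE and 1.52 and 3.54 CPM in GP, and the 4 red cell markers reached at most 0.541 CPM. Lct, Il25, Cd8a, C1qa, Col1a1, Col1a2, Col3a1, Pdgfra, Cdh5, Hbb-bs and Hbb-bt had no UMI in any of the 4 sums.

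Of 10994 genes tested with edgeR, 539 were higher in GOBLET-PRE (4.90%) and 493 lower (4.48%) at an adjusted p under 0.05, together 9.39%. All 1032 moved the same way in both libraries, but a gene that did not could hardly pass, so this is no sign of stability. Changes were mostly modest: 130 genes rose and 75 fell by 1 or more on the log2 scale, and the median called change was 0.63 among the higher and -0.57 among the lower genes. The median over all genes was -0.02. The split depended on scaling, with 665 higher and 384 lower when TMM used all genes. Without the library term, 64 higher and 52 lower genes passed. With the 2 classes of 1 library only, and the spread taken from the other classes, 94 higher and 50 lower passed without replicate 1 and 159 and 128 without replicate 2.

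**Figure D3:**
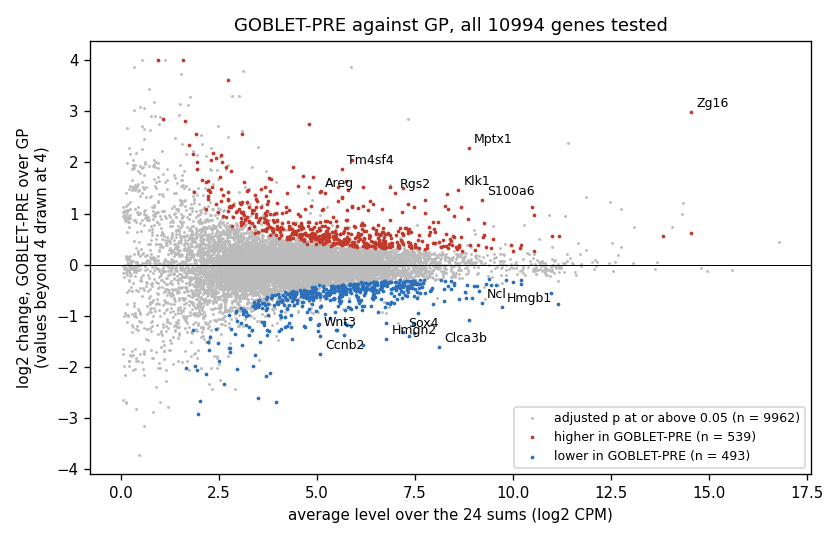
Log2 change (GOBLET-PRE over GP) against average level over the 24 class sums (log2 CPM) for all genes tested, with the 539 higher genes in red and the 493 lower genes in blue. Zg16, a marker shown as a description, lies far to the right at a log2 change of 2.98, some genes of low average level changed by more, and most other called genes lie within 1 of 0.

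Among genes that are no markers and average a log2 CPM of 5 or more over all 24 sums, the 15 largest increases came in genes of several kinds. Mptx1, a mucosal pentraxin (ENSMUSG00000026531, chromosome 1, 174330518 to 174332873, + strand), had 76.4 and 266 CPM in GOBLET-PRE, against 11.2 and 62.1 CPM in GP (log2 change 2.28 ± 0.32 SE, adjusted p = 7.41e-04). Its level was higher in replicate 2 in both classes, both GOBLET-PRE sums lay above the GP sums, and PANETH-PRE had 506 and 1345 CPM. Among thinned cells, 4.35% (3.54 to 5.27) and 13.9% (12.0 to 15.9) of GOBLET-PRE cells had an Mptx1 UMI. In GP it was 3% (1.79 to 4.70) and 8.19% (6.20 to 10.6), and the intervals of replicate 1 overlapped. Most thinned cells of both classes thus held none. The highest thinned cell held 36 and 42 Mptx1 UMIs in GOBLET-PRE and 4 and 17 in GP. Reads of the near copy Mptx2 may be shared with Mptx1. Tm4sf4, a tetraspanning membrane protein (ENSMUSG00000027801, chromosome 3, 57425314 to 57441677, + strand), had 66.1 and 58.4 CPM in GOBLET-PRE, against 15.5 and 19.1 CPM in GP (log2 change 1.86 ± 0.27 SE, adjusted p = 3.78e-04). Klk1, tissue kallikrein (ENSMUSG00000063903, chromosome 7, 44225360 to 44229618, + strand), had 1112 and 998 CPM in GOBLET-PRE, against 365 and 401 CPM in GP (log2 change 1.47 ± 0.17 SE, adjusted p = 3.78e-05). Its level in GOBLET-PRE was close to that of goblet cells, 1177 and 1169 CPM, though kallikrein genes are a family of near copies. Ramp1, part of the receptor for the neuropeptide CGRP (ENSMUSG00000034353, chromosome 1, 91179822 to 91225196, + strand), had 245 and 219.7 CPM in GOBLET-PRE, against 76.7 and 87.6 CPM in GP (log2 change 1.51 ± 0.14 SE, adjusted p = 3.02e-09). Rgs2, which switches off G protein signals (ENSMUSG00000026360, chromosome 1, 143999338 to 144004161, - strand), had 356 and 292 CPM in GOBLET-PRE, against 124 and 121 CPM in GP (log2 change 1.41 ± 0.13 SE, adjusted p = 4.22e-11). In PANETH-PRE Rgs2 was at 27 and 20.9 CPM and in SEC-PRO at 47.3 and 38.6 CPM, so both GOBLET-PRE sums were the higher ones.

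Gde1, a glycerophosphodiester phosphodiesterase, had 118 and 115 CPM in GOBLET-PRE, against 35.1 and 47.5 CPM in GP. Clec2h, a C-type lectin, had 262 and 221 CPM in GOBLET-PRE, against 81.8 and 87 CPM in GP, and the actin-severing gelsolin (Gsn) had 74.8 and 62.2 CPM in GOBLET-PRE, against 22.4 and 29.1 CPM in GP. These 3 were higher in both GOBLET-PRE sums than in GP, and higher still in goblet cells. Before scaling, Gsn had 320 and 261 CPM in free RNA. It had 82.5 and 68.4 CPM in GOBLET-PRE and 28.6 and 36.3 CPM in GP. The part of free RNA in the Gsn levels was not tested. The selenium carrier Selenop had 28.3 and 38.2 CPM in GOBLET-PRE, against 8.38 and 12.6 CPM in GP, the sulfotransferase Sult1d1 39.1 and 37.1 CPM in GOBLET-PRE, against 16 and 13.9 CPM in GP and transthyretin (Ttr), a hormone carrier, 126 and 121 CPM in GOBLET-PRE, against 50.04 and 49.5 CPM in GP. Ttr was lower in the goblet class, at 29.7 and 12.4 CPM. The remaining 4 were Dusp1, Atf3, Areg and Hbegf, described with their families. Without replicate 1, Mptx1 (log2 2.10), Selenop (1.60), Clec2h (1.35) and Atf3 (1.69) no longer passed. Without replicate 2, this held for Mptx1 (2.76), Selenop (1.74) and Atf3 (1.11).

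The 15 largest decreases included genes of dividing cells and of chromatin, several at low levels in both classes, since the average that selected them covers all 12 classes. Cyclin B2 (Ccnb2, ENSMUSG00000032218, chromosome 9, 70407692 to 70421547, - strand) had 3.16 and 5.79 CPM in GOBLET-PRE, against 13 and 14.2 CPM in GP (log2 change -1.75 ± 0.29 SE, adjusted p = 3.24e-05). Cenpf, a kinetochore protein, had 5.54 and 6.69 CPM in GOBLET-PRE, against 15.2 and 20.04 CPM in GP, Cenpe 5.01 and 5.25 CPM in GOBLET-PRE, against 8.89 and 14.2 CPM in GP and Knl1 2.84 and 2.90 CPM in GOBLET-PRE, against 6.60 and 6.14 CPM in GP. These levels were low in both classes, and SEC-PRO had 259.9 and 194 CPM of Cenpf. Cdca3, which triggers mitotic entry, had 3.96 and 4.34 CPM in GOBLET-PRE, against 11.2 and 10.02 CPM in GP. The helicase subunit Mcm6 had 5.60 and 8.32 CPM in GOBLET-PRE, against 15.2 and 17.5 CPM in GP, and stathmin (Stmn1), which takes microtubules apart, 14.6 and 25.3 CPM in GOBLET-PRE, against 40.6 and 56.2 CPM in GP. Before scaling, free RNA held more Ccnb2, Cenpf, Mcm6 and Stmn1 than GOBLET-PRE or GP in both libraries. For Stmn1 it held 214 and 242 CPM, against 16.1 and 27.8 CPM in GOBLET-PRE and 52.0 and 70.2 CPM in GP. The part of free RNA in these levels was not tested. The histone chaperone Nap1l1 had 30.3 and 27.3 CPM in GOBLET-PRE, against 62.7 and 66.6 CPM in GP (log2 change -1.15 ± 0.13 SE, adjusted p = 1.85e-11). Without replicate 1 the changes of Ccnb2 (log2 -1.28), Cdca3 (-1.19), Mcm6 (-1.06), Stmn1 (-1.15) and Knl1 (-1.06) no longer passed, and without replicate 2 those of Stmn1 (-1.49), Knl1 (-1.22) and Cenpe (-0.83).

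Nucleosome-binding and bending proteins of the HMG families were lower too, and 3 of them ranked among the 15 largest decreases. Hmgn2 (ENSMUSG00000003038, chromosome 4, 133964738 to 133968650, - strand), which loosens chromatin, had 33.3 and 44.7 CPM in GOBLET-PRE, against 96.5 and 115 CPM in GP (log2 change -1.46 ± 0.12 SE, adjusted p = 1.15e-16). Hmgn1 had 22.2 and 35.6 CPM in GOBLET-PRE, against 57.1 and 94.7 CPM in GP and Hmgb3 12.6 and 12.8 CPM in GOBLET-PRE, against 25.1 and 33.9 CPM in GP. In all 3 the GP sums lay between those of GOBLET-PRE and SEC-PRO, where Hmgn2 had 204 and 218 CPM. The family was then read as a whole, a choice made after these values were seen. Of 9 measured members, 7 fell, against 4.48% of all genes tested: Hmgb1 had 370.0 and 432 CPM in GOBLET-PRE, against 678 and 740.2 CPM in GP, and Hmgb2, Hmgn5 and Hmga2 changed by -1.08, -0.76 and -1.77 on the log2 scale. Hmga1 (-0.57) and Hmgn3 (0.73) did not pass. The HMG genes have many processed copies in the genome, and the sources here do not say how reads shared with them were counted. Before scaling, Hmgn1 had 160 and 183 CPM in free RNA, against 24.5 and 39.2 CPM in GOBLET-PRE and 73.1 and 118 CPM in GP. Hmgn2 had 127 and 105 CPM in free RNA, against 36.7 and 49.1 CPM in GOBLET-PRE and 124 and 143 CPM in GP. The part of free RNA in these levels was not tested. Without the library term Hmgn1 (log2 -1.41) and Hmga2 (-1.82) no longer passed, and Hmga2 was also lost without replicate 1 (-1.79) and without replicate 2 (-1.73).

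Of the genes that fell, Wnt3, Fam46c and Aqp1 had far higher levels in PANETH-PRE. Wnt3, the Wnt ligand that Paneth cells supply to stem cells (ENSMUSG00000000125, chromosome 11, 103774150 to 103817957, + strand), had 5.08 and 5.07 CPM in GOBLET-PRE, against 14.2 and 10.3 CPM in GP (log2 change -1.30 ± 0.24 SE, adjusted p = 3.43e-05), while PANETH-PRE had 143 and 131 CPM. Fam46c, a poly(A) polymerase, had 6.26 and 4.52 CPM in GOBLET-PRE, against 14 and 12 CPM in GP, with 268 and 255 CPM in PANETH-PRE. The water channel Aqp1 had 6.46 and 7.42 CPM in GOBLET-PRE, against 16 and 15.2 CPM in GP, with 85.9 and 96.6 CPM in PANETH-PRE. For these 3 genes the GP sums were the higher ones, but they were far nearer to GOBLET-PRE than to PANETH-PRE. The mean of the SEC-PRO sums lay above that of GP for all 15 of the largest decreases, these 3 included. Before scaling, free RNA held 16.6 and 16.3 CPM of Wnt3. Unscaled Wnt3 was at 5.59 and 5.57 CPM in GOBLET-PRE and 18.2 and 12.9 CPM in GP. The part of free RNA in the Wnt3 levels was not tested. Clca3b, of the Clca1 family (ENSMUSG00000037033, chromosome 3, 144822623 to 144849357, - strand), had 64.2 and 86.5 CPM in GOBLET-PRE, against 218 and 236 CPM in GP (log2 change -1.62 ± 0.19 SE, adjusted p = 5.88e-05), and SEC-PRO had 319 and 393 CPM. Its direction was thus the opposite of that of Clca1, with which it may share reads. The receptor tyrosine kinase gene Kit had 96.9 and 148 CPM in GOBLET-PRE, against 151 and 222 CPM in GP (log2 change -0.61 ± 0.11 SE, adjusted p = 3.23e-05). Without replicate 1, Wnt3 (log2 -1.02), Fam46c (-1.39), Aqp1 (-1.02) and Kit (-0.58) no longer passed. Bhlha15 and Cldn2, also higher in PANETH-PRE than in both classes, were lower in GOBLET-PRE too and are given with their lists.

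**Figure D4:**
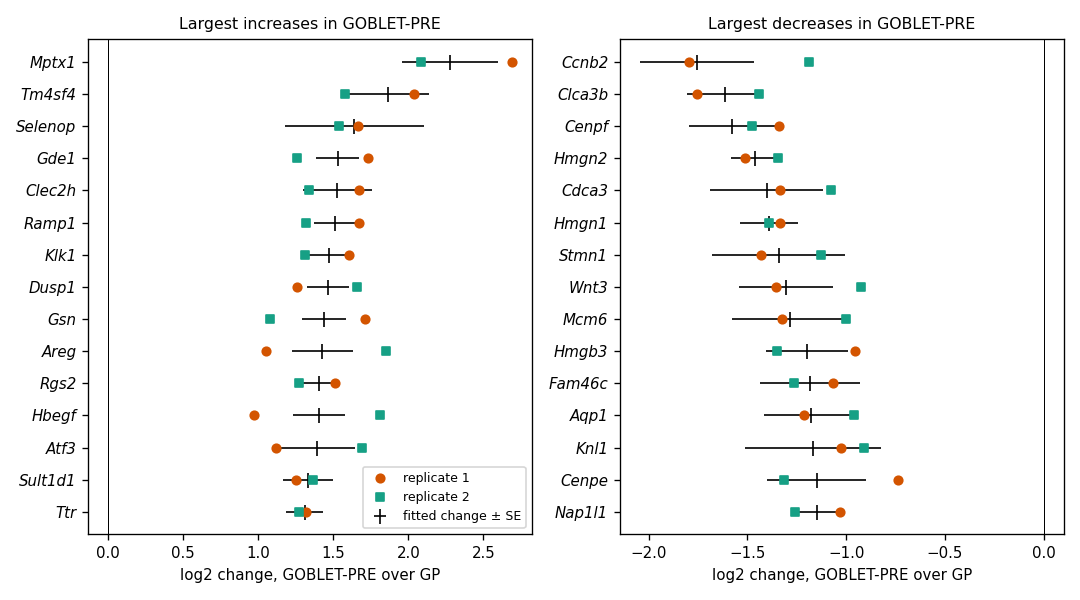
Log2 change (GOBLET-PRE over GP) of the 15 largest increases and the 15 largest decreases among genes that are no markers and average a log2 CPM of 5 or more over the 24 sums, with replicate 1 as circles, replicate 2 as squares and the fitted change with its SE as a bar. Every point lies on the same side of 0 as its fitted change; the 2 libraries differ most for Hbegf and Areg.

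Atoh1, Spdef and Gfi1, regulators of secretory fate, did not pass the test. Atoh1 (ENSMUSG00000073043, chromosome 6, 64729125 to 64731245, + strand) had 133 and 107 CPM in GOBLET-PRE, against 128 and 101.2 CPM in GP (log2 change 0.07 ± 0.15 SE, adjusted p = 0.862), and the groups overlapped. Thinned, 25% and 19.9% of GOBLET-PRE cells and 26% and 22.1% of GP cells had an Atoh1 UMI, against 7.69% and 4.598% of TUFT cells. Spdef, which drives goblet maturation, had 178 and 187 CPM in GOBLET-PRE, against 197 and 217 CPM in GP (adjusted p = 0.356), and Gfi1 had 20.9 and 10.3 CPM in GOBLET-PRE, against 21.8 and 12.3 CPM in GP (adjusted p = 0.865). Of 16 secretory transcription factors measured, 1 rose and 4 fell, against 4.90% and 4.48% of all genes tested. The median log2 change was -0.08, or 0.04 from thinned cells. The one that rose was Creb3l4 (log2 0.36). Sox4, a progenitor factor, had 11.9 and 12.8 CPM in GOBLET-PRE, against 30.2 and 30.7 CPM in GP (log2 change -1.31 ± 0.18 SE, adjusted p = 8.46e-08), the clearest fall of the list. Before scaling, Sox4 had 103 and 85.7 CPM in free RNA, against 13.1 and 14.1 CPM in GOBLET-PRE and 38.7 and 38.3 CPM in GP. The part of free RNA in the Sox4 levels was not tested. Sox9, required for Paneth cells, had 95.5 and 80.5 CPM in GOBLET-PRE, against 126 and 114 CPM in GP. Bhlha15 (Mist1), which scales up secretory machinery, had 21.7 and 26.8 CPM in GOBLET-PRE, against 33.3 and 37.5 CPM in GP, and Foxa2 changed by -0.63. Of these 5, Sox4 alone passed both without replicate 1 and without replicate 2.

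Most Notch and Wnt genes did not pass, in a comparison where 4.90% of all genes tested rose and 4.48% fell. Hes1, the main Notch target, had 37.3 and 76.2 CPM in GOBLET-PRE, against 26.2 and 53 CPM in GP, higher within each library but with groups that overlapped across them. The ligand Dll1 had 60.9 and 60.4 CPM in GOBLET-PRE, against 90.7 and 70.8 CPM in GP. They were the 1 that rose and the 1 that fell of 13 Notch genes, whose median was -0.31 (-0.10 without replicate 1), and neither passed without replicate 1 or without replicate 2 (Hes1 log2 0.53 and 0.50, Dll1 -0.22 and -0.59). Of 21 Wnt targets and feedback genes, 3 fell, against 4.48% of all genes tested (median -0.29). That median was -0.06 without replicate 1, -0.07 from thinned cells and -0.16 without cells that held a Mki67 or Top2a UMI, and 1 gene fell without replicate 1 and 1 without replicate 2. Axin2, the standard Wnt target and also on the stem marker list, had 9.03 and 10.7 CPM in GOBLET-PRE, against 23.4 and 23.6 CPM in GP. Cd44 had 2.90 and 3.44 CPM in GOBLET-PRE, against 6.60 and 8.08 CPM in GP, and Tnfrsf19 was at 0.132 and 0 CPM in GOBLET-PRE, against 1.02 and 0.970 CPM in GP, near its detection limit. Neither passed without replicate 1 (log2 -1.21 for Cd44 and -3.98 for Tnfrsf19) or without replicate 2 (-1.18 and -2.55). Stem markers were low throughout: Lgr5 had 1.12 and 1.09 CPM in GOBLET-PRE, against 0.762 and 2.59 CPM in GP, Olfm4 19.4 and 18.3 CPM in GOBLET-PRE, against 30.7 and 28.1 CPM in GP and Smoc2 18.1 and 16.8 CPM in GOBLET-PRE, against 29.5 and 33.9 CPM in GP. Apc and Ctnnb1, whose products set Wnt activity, had log2 changes of -0.09 and 0.07 (adjusted p = 0.753 for Apc and 0.750 for Ctnnb1).

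Areg, Hbegf and Btc, ligands of the epidermal growth factor (EGF) receptor, rose in GOBLET-PRE. Amphiregulin (Areg, ENSMUSG00000029378, chromosome 5, 91139599 to 91148432, + strand) had 69.9 and 93 CPM in GOBLET-PRE, against 33.3 and 25.2 CPM in GP (log2 change 1.42 ± 0.20 SE, adjusted p = 8.71e-05). Hbegf (ENSMUSG00000024486, chromosome 18, 36504927 to 36515805, - strand) had 52.1 and 98.4 CPM in GOBLET-PRE, against 26.2 and 27.5 CPM in GP (log2 change 1.40 ± 0.17 SE, adjusted p = 3.58e-07). Both GOBLET-PRE sums were the higher ones for each ligand, and the step was larger in replicate 2. Betacellulin (Btc) changed by 0.84, while Egf (0.15) and Tgfa (-0.13) and the receptors Egfr (-0.62), Erbb2 (-0.09) and Erbb3 (0.17) did not pass. Thinned, 9.05% (7.90 to 10.3) and 13.2% (11.4 to 15.2) of GOBLET-PRE cells had an Areg UMI, against 4.67% (3.12 to 6.67) and 4.02% (2.64 to 5.83) of GP cells. In PANETH cells the thinned share was 0.922% and 0.775%, at a median depth of 23375 and 12874 UMIs before thinning. In TUFT cells it was 0 of 130 cells in replicate 1, which allows a share of up to 2.31% at 3 counts of the total (exact upper bound 2.80%), and 3.45% in replicate 2 (0.717 to 9.75). GOBLET-PRE was above these shares, and GP was close to that of TUFT cells in replicate 2. Unthinned, the shares were 14.3% and 16.2% of GOBLET-PRE cells and 7.59% and 6.63% of GP cells. The bone morphogenetic protein Bmp2 had 23.9 and 22.6 CPM in GOBLET-PRE, against 9.40 and 6.47 CPM in GP (log2 change 1.51 ± 0.21 SE, adjusted p = 1.46e-07). Id1 and Id3, known targets of this pathway, rose too, Id3 with 110.4 and 118 CPM in GOBLET-PRE, against 64 and 69.5 CPM in GP. In all, 6 of 15 niche ligands, receptors and Id genes rose and 2, Wnt3 and Kit, fell (median 0.25). Of all genes tested, 4.90% rose and 4.48% fell. The number that rose was 3 without the library term, 4 without replicate 1, 4 without replicate 2 and 5 with DESeq2.

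Of 18 immediate-early and heat shock genes measured, 10 rose, against 4.90% of all genes tested, and the median change was 0.69. Dusp1, which dephosphorylates MAP kinases (ENSMUSG00000024190, chromosome 17, 26505590 to 26562128, - strand), had 90.3 and 112 CPM in GOBLET-PRE, against 37.3 and 34.9 CPM in GP (log2 change 1.46 ± 0.14 SE, adjusted p = 1.12e-12). Atf3, a stress-induced factor (ENSMUSG00000026628, chromosome 1, 191170296 to 191218039, - strand), had 434 and 669 CPM in GOBLET-PRE, against 199 and 207 CPM in GP (log2 change 1.39 ± 0.25 SE, adjusted p = 0.00407). Klf6 had 208 and 267 CPM in GOBLET-PRE, against 122 and 105 CPM in GP, Fos 687 and 817 CPM in GOBLET-PRE, against 371 and 442 CPM in GP and Fosb 323 and 374 CPM in GOBLET-PRE, against 176 and 167 CPM in GP. In each of these the 2 GOBLET-PRE sums lay above the 2 GP sums. Zfp36, which destabilizes messenger RNA, had 122 and 58.6 CPM in GOBLET-PRE, against 69.6 and 33.3 CPM in GP, higher within each library, but the groups overlapped across libraries. Jun (log2 0.50), Junb (log2 0.77) and Egr1 (log2 0.60) did not pass. The heat shock genes Hspa1a (log2 -0.12) and Hspa1b (log2 -0.26) did not pass either, but their partner Dnajb1 rose (log2 0.70). Under alternatives, the number that rose was 2 without the library term, 4 without replicate 1, 5 without replicate 2 and 9 with DESeq2.

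Promoter sequences of genes in these groups are shown because their members moved together. They are RefSeq sequences (GRCm38.p6, 250 bases before to 50 after the gene start), with 8624 of the 10994 tested genes matched by symbol. Dusp1 (chr17:26508423-26508722, - strand) is shown for the cyclic AMP response element, and Mybbp1a (chr11:72441077-72441376, + strand) and Nop2 (chr6:125131633-125131932, + strand), both ribosome biogenesis genes described further on, for the E-box. Capitals mark the motif each is shown for.
Dusp1: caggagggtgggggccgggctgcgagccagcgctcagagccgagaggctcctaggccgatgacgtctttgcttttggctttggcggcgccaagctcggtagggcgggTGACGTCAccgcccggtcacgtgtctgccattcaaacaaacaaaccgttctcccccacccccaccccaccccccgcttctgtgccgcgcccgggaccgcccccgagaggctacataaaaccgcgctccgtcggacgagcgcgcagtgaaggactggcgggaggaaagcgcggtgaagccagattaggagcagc
Mybbp1a: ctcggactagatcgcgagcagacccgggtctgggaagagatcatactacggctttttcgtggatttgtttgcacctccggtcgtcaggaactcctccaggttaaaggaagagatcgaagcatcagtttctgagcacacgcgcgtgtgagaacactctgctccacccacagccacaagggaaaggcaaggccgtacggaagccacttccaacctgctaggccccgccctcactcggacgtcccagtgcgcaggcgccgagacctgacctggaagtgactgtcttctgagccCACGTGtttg
Nop2: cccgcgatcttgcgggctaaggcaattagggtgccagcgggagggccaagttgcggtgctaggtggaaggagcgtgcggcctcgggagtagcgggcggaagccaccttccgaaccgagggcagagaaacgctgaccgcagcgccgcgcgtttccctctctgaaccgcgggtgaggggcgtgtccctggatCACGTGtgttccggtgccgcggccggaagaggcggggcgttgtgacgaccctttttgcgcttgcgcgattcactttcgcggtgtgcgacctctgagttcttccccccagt
The element TGACGTCA lies at -143 from the start of Dusp1, which also holds CACGTG at -126, and CACGTG lies at 40 in Mybbp1a and -60 in Nop2. Both motifs read the same on either strand, and TGACTCA (AP-1) was searched on both; neighbouring matches may overlap and each was counted. CACGTG was found in 17.3% of the 415 matched genes that fell, 10.8% of the 417 that rose and 12.2% of all matched genes tested. TGACTCA was found in 2.41% of those that fell, 7.43% of those that rose and 4.48% of all, and TGACGTCA in 3.13% of those that fell, 4.80% of those that rose and 3.75% of all. Of the 17 matched ribosome biogenesis genes that fell, 3 held CACGTG (Mybbp1a, Nop2 and Wdr43). That is 17.6%, near the 17.3% of all matched genes that fell. Of the 9 matched immediate-early genes that rose, 1 (Dusp1) held TGACGTCA and 2 (Dusp1 and Klf6) held CACGTG.

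Ribosome biogenesis was the list with the most decreases. Of 30 members measured, 20 fell, against 4.48% of all genes tested, and the median change was -0.54. Nucleolin (Ncl, ENSMUSG00000026234, chromosome 1, 86344719 to 86359400, - strand) had 283 and 309.6 CPM in GOBLET-PRE, against 483 and 515 CPM in GP (log2 change -0.75 ± 0.10 SE, adjusted p = 4.18e-08). Mybbp1a, a nucleolar partner of Myb, had 33.3 and 44.9 CPM in GOBLET-PRE, against 63 and 83.1 CPM in GP (log2 change -0.89 ± 0.12 SE, adjusted p = 8.27e-08), and Nolc1 had 41.9 and 43.2 CPM in GOBLET-PRE, against 75.9 and 75 CPM in GP (log2 change -0.82 ± 0.13 SE, adjusted p = 1.13e-06). In each, both GP sums were the higher ones, and SEC-PRO had more Ncl still, 681 and 846 CPM. The rRNA methyltransferases Fbl and Nop2 changed by -0.68 and -0.90, nucleophosmin (Npm1) by -0.52 and the RNA polymerase I subunit Polr1a by -0.59. Thinned, 42.4% (40.3 to 44.4) and 44.1% (41.3 to 46.8) of GOBLET-PRE cells had an Ncl UMI, against 69.5% (65.6 to 73.2) and 68.8% (65.1 to 72.3) of GP cells; PANETH cells had one in 23% and 21.7%. Unthinned, the shares were 75.6% and 60.9% of GOBLET-PRE cells and 85.5% and 77.7% of GP cells. The number that fell was 0 without the library term, 4 without replicate 1, 11 without replicate 2 and 17 with DESeq2. The median stayed between -0.59 and -0.50 under every alternative run.

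Of 32 cytosolic ribosomal protein genes, none passed in edgeR (median -0.10), though 29 were lower and 1 higher in both libraries; 0 were higher and 4 lower at an unadjusted p under 0.05, and DESeq2 called 0. The 13 genes of the mitochondrial genome had a median of 0.03, 6 higher and 2 lower in both libraries, with 0 passing in edgeR, 0 at an unadjusted p under 0.05 and 0 in DESeq2. Among 30 nuclear genes of oxidative phosphorylation the median was 0.01 and 1 rose (3.33%, against 4.90% of all genes tested). It was Ndufa1, with 178 and 163 CPM in GOBLET-PRE, against 126 and 124 CPM in GP. Ndufa1 was lost without replicate 1 (log2 0.39) and without replicate 2 (0.49). No ATF4 or amino acid gene of 17 passed in edgeR or DESeq2 (3 higher at an unadjusted p under 0.05), though 2 rose with TMM over all genes. In the fit of only the 4 sums, 21 ribosomal protein genes were lower. That fit takes the spread from those 4 sums alone and called far more genes of every kind. Of 10017 genes it tested, 1116 were higher and 1325 lower, against 539 and 493 in the main fit.

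Most members of the cell cycle lists did not pass, though the share that fell was above the 4.48% of all genes tested in both lists. Of all genes tested, 4.90% rose. Of 30 G1/S genes 3 fell (Mcm4, Mcm6 and Chaf1b; median -0.48), and of 30 G2/M genes 5 fell (Ccnb2, Cenpe, Cenpf, Birc5 and Hmgb2) and 1, the tubulin Tubb4b, rose (median -0.22). Mcm4 was lost without replicate 1 (log2 -1.04), Chaf1b without replicate 2 (-1.18), and Birc5 without replicate 1 (-1.07), without replicate 2 (-0.74) and with DESeq2 (-0.85). Of G2/M genes, 2 fell without replicate 1 (median -0.37) and 3 without replicate 2 (median -0.06), and of G1/S genes 1 and 2. The G2/M median was -0.11 from thinned cells, -0.42 without cells that held a Mki67 or Top2a UMI and -0.66 with at least 10 counts in each of the 4 sums. Mki67, the proliferation marker, had 18.9 and 30.4 CPM in GOBLET-PRE, against 47 and 58.2 CPM in GP, while Top2a, expressed from S phase on, had 21.2 and 27.9 CPM in GOBLET-PRE, against 16.8 and 26.8 CPM in GP, with overlapping groups. SEC-PRO had 687 and 607 CPM of Mki67. Thinned, a Mki67 UMI was found in 3.77% (3.02 to 4.64) and 5.51% (4.33 to 6.90) of GOBLET-PRE cells and 10% (7.72 to 12.7) and 9.58% (7.43 to 12.1) of GP cells. The thinned share was 4.15% and 2.58% of PANETH cells, which no longer divide, and 8.46% and 9.20% of TUFT cells, so GOBLET-PRE lay below the TUFT share and GP close to it. Unthinned it was 8.97% and 9.28% of GOBLET-PRE cells and 17.5% and 15.1% of GP cells. Before scaling, free RNA held 266 and 212 CPM of Mki67, against 20.8 and 33.4 CPM in GOBLET-PRE and 60.1 and 72.6 CPM in GP. Its part in the decreases of cycle genes was not tested. When cells with a Mki67 or Top2a UMI were left out, 5 of 24 G1/S genes and 20 of 29 ribosome biogenesis genes fell.

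The cycle inhibitors Cdkn2b and Cdkn1a rose in GOBLET-PRE. Cdkn2b (p15, ENSMUSG00000073802, chromosome 4, 89306299 to 89311039, - strand) had 55.4 and 39.3 CPM in GOBLET-PRE, against 15.5 and 18.4 CPM in GP (log2 change 1.52 ± 0.17 SE, adjusted p = 1.85e-11), and goblet cells had 257 and 173 CPM. Cdkn1a (p21, ENSMUSG00000023067, chromosome 17, 29090976 to 29100727, + strand) had 168 and 187 CPM in GOBLET-PRE, against 74.4 and 82.1 CPM in GP (log2 change 1.18 ± 0.18 SE, adjusted p = 3.20e-04), and goblet cells had 583 and 545 CPM. Both were higher in the 2 GOBLET-PRE sums. The antiproliferative Btg2 had 378 and 280.3 CPM in GOBLET-PRE, against 236 and 141 CPM in GP, and no longer passed without replicate 2 (log2 0.67). Cdkn1c (p57) was lower, with 1.98 and 2.35 CPM in GOBLET-PRE, against 5.33 and 4.53 CPM in GP, and was lost without replicate 1 (log2 -0.92) and without replicate 2 (-1.42). These were the 3 that rose and the 1 that fell of 16 cycle exit genes measured, against 4.90% and 4.48% of all genes tested. Among the 16, Cdkn1b (p27) changed by -0.07 and did not pass.

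Of 14 genes of granule exocytosis, 7 rose, against 4.90% of all genes tested (median 0.43). Rab27b, a GTPase that tethers granules (ENSMUSG00000024511, chromosome 18, 69979131 to 70141605, - strand), had 213 and 197 CPM in GOBLET-PRE, against 136 and 134 CPM in GP (log2 change 0.60 ± 0.11 SE, adjusted p = 7.71e-05). Its effector Sytl2, also a goblet marker here, had 280.2 and 261 CPM in GOBLET-PRE, against 193 and 207 CPM in GP, and the calcium sensor Syt7 had 64.1 and 65.7 CPM in GOBLET-PRE, against 41.4 and 46.5 CPM in GP. All 3 were higher in the 2 GOBLET-PRE sums. Sytl4, Vamp8 and Stx3 changed by 0.56, 0.34 and 0.49 on the log2 scale. The number that rose was 0 without the library term, 0 without replicate 1, 1 without replicate 2 and 3 with DESeq2.

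Of 34 mucin glycan genes, 5 rose, against 4.90% of all genes tested (median 0.15). Chst4, a sulfotransferase, had 71.5 and 72.6 CPM in GOBLET-PRE, against 37.1 and 44.6 CPM in GP (log2 change 0.83 ± 0.14 SE, adjusted p = 5.48e-06). C1galt1c1 (Cosmc), the chaperone of the core 1 enzyme, had 191 and 119.8 CPM in GOBLET-PRE, against 104 and 84 CPM in GP (log2 change 0.72 ± 0.12 SE, adjusted p = 8.75e-06), and B3gnt7, which extends sugar chains, 47.6 and 73.6 CPM in GOBLET-PRE, against 35.8 and 46.5 CPM in GP. With the sulfate transporter Slc26a2 (log2 0.33) and Papss2 (log2 0.72), which makes the sulfate donor, 3 of the 5 serve sulfation. The core enzymes C1galt1 (log2 0.15) and Gcnt3 (log2 0.23) and the fucosyltransferase Fut2 (log2 -0.13) did not pass. Under alternatives, the number that rose was 0 without the library term, 0 without replicate 1, 2 without replicate 2 and 3 with DESeq2.

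The early secretory pathway was nearly level. Of 54 genes of translocation and transport to the Golgi, 3 rose (5.56%, near the 4.90% of all genes tested; median 0.10): the translocon-associated Ssr4, with 1037 and 830.1 CPM in GOBLET-PRE, against 686 and 568 CPM in GP, the cargo receptor Tmed3, with 319 and 257 CPM in GOBLET-PRE, against 219 and 167 CPM in GP, and Kdelr3, which returns proteins to the endoplasmic reticulum (ER), with 108 and 86.9 CPM in GOBLET-PRE, against 68.1 and 59.5 CPM in GP. Of 40 genes of ER folding and the unfolded protein response, 4 rose and 1 fell (median 0.11). Of all genes tested, 4.90% rose and 4.48% fell. The stress factor Ddit3 (CHOP) had 38.4 and 60.3 CPM in GOBLET-PRE, against 27.7 and 32 CPM in GP, and the chaperone Hsp90b1 had 1256 and 1280 CPM in GOBLET-PRE, against 1638 and 1571 CPM in GP. Their sums did not overlap between the classes. Hspa5 (BiP, log2 0.13), Xbp1 (log2 0.24) and the goblet ER sensor Ern2 (log2 -0.06) did not pass. Hsp90b1 was lost without replicate 1 (log2 -0.29) and without replicate 2 (-0.39). The number of ER folding genes that rose was 0 without the library term, 1 without replicate 1, 0 without replicate 2 and 3 with DESeq2, and that of the transport list was 0 without replicate 1 and 0 without replicate 2.

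Annexins and S100 proteins bind calcium, and annexins also membranes. Of 14 measured, 10 rose, against 4.90% of all genes tested (median 0.51). S100a6 had 1019 and 989.6 CPM in GOBLET-PRE, against 394 and 444 CPM in GP (log2 change 1.27 ± 0.26 SE), S100a13 181 and 172 CPM in GOBLET-PRE, against 71.1 and 77.9 CPM in GP and S100a1 99.3 and 127 CPM in GOBLET-PRE, against 43.7 and 58.5 CPM in GP. Each was higher in both GOBLET-PRE sums. Anxa2 had 483 and 444 CPM in GOBLET-PRE, against 303 and 293 CPM in GP and Anxa3 43.5 and 34.6 CPM in GOBLET-PRE, against 17.5 and 21.7 CPM in GP, while Anxa4 (log2 0.09), Anxa6 (log2 -0.53), Anxa7 (log2 0.14) and Anxa11 (log2 0.05) did not pass. Thinned, 77.8% (76 to 79.5) and 80.4% (78.1 to 82.5) of GOBLET-PRE cells held an S100a6 UMI, against 55% (50.9 to 59) and 57.8% (53.9 to 61.6) of GP cells. PANETH cells held one in 2.76% and 7.49%. Unthinned, the shares were 92.7% and 88.1% of GOBLET-PRE cells and 71.2% and 64.8% of GP cells. S100a1 and S100a13 are neighbours on chromosome 3. The number that rose was 3 without the library term, 3 without replicate 1, 6 without replicate 2 and 7 with DESeq2.

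Of 20 keratin and junction genes, 7 rose and 1 fell, against 4.90% and 4.48% of all genes tested (median 0.22). Krt8 had 2560 and 2744 CPM in GOBLET-PRE, against 1767 and 1834 CPM in GP, and its partner Krt18 1731 and 1699 CPM in GOBLET-PRE, against 1383 and 1344 CPM in GP. Krt20, a keratin of mature epithelium and on the enterocyte marker list, had 347 and 321 CPM in GOBLET-PRE, against 160.3 and 155 CPM in GP. These keratins were higher in both GOBLET-PRE sums. Claudin 4 (Cldn4) had 60.4 and 100.6 CPM in GOBLET-PRE, against 43.4 and 47.2 CPM in GP and no longer passed without replicate 2 (log2 0.46). The pore-forming claudin 2 (Cldn2) had 24.5 and 21.2 CPM in GOBLET-PRE, against 45.7 and 35.2 CPM in GP and no longer passed without replicate 1 (-0.73), and PANETH-PRE had 183 and 178 CPM. The number that rose was 0 without the library term, 1 without replicate 1, 0 without replicate 2 and 7 with DESeq2.

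**Figure D5:**
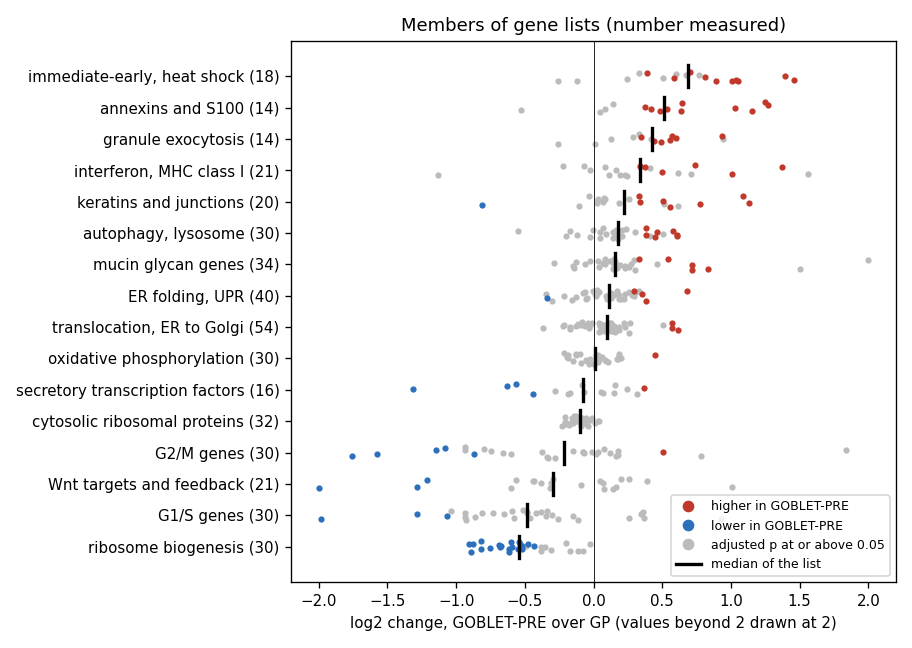
Log2 change (GOBLET-PRE over GP) of each measured member of 16 gene lists, 1 point per gene, red and blue for those that passed and grey for the rest; the black bar is the list's median. The ribosome biogenesis list lies to the left with a median of -0.54, and the immediate-early and annexin and S100 lists lie furthest to the right, with medians of 0.69 and 0.51.

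Of 21 interferon and MHC class I genes 6 rose, against 4.90% of all genes tested (median 0.34, or 0.19 without replicate 1), among them Isg15 with 18.3 and 13 CPM in GOBLET-PRE, against 5.08 and 7.43 CPM in GP, Irf7 with 19.4 and 25.3 CPM in GOBLET-PRE, against 12.7 and 13.6 CPM in GP and H2-K1 with 709 and 572 CPM in GOBLET-PRE, against 519.7 and 462 CPM in GP. Isg15 no longer passed without replicate 1 (log2 0.81), nor did Irf7 (0.90) and H2-K1 (0.31), which were also lost without replicate 2 (0.60 and 0.44). Of 30 autophagy and lysosome genes 7 rose, against 4.90% of all genes tested (median 0.18), including the granule membrane protein Cd63, with 419 and 350.3 CPM in GOBLET-PRE, against 265 and 240.5 CPM in GP, and Gabarap, with 453 and 479 CPM in GOBLET-PRE, against 309.6 and 369 CPM in GP, which was lost without replicate 1 (log2 0.38). The number that rose was 0 without the library term, 1 without replicate 1, 2 without replicate 2 and 4 with DESeq2. Glycolysis gave 3 higher of 14 (Hk1, Pfkp and Aldoa, median 0.17). Sterol and lipid synthesis gave 3 higher (Hmgcs1, Fdps and Cyp51) and 1 lower (Elovl5) of 21. Its median was 0.15, or 0.09 from thinned cells. Of all genes tested, 4.90% rose and 4.48% fell. No glycolysis or sterol gene passed without replicate 1 or without replicate 2. The number of interferon genes that rose was 0 without the library term, 0 without replicate 1, 1 without replicate 2 and 2 with DESeq2. No gene passed in edgeR or DESeq2 among 13 of ion transport (median 0.08; 4 higher and 1 lower at an unadjusted p under 0.05) and 7 of MHC class II (median -0.26, or -0.15 without replicate 2 and -0.12 from thinned cells; 1 lower at an unadjusted p under 0.05). Under alternatives ion transport genes passed in both directions. With TMM over all genes 2 rose. From thinned cells, with relative log expression factors, with at least 10 counts in each sum and without the GOBLET and PANETH sums 1 rose. With no low-count filter 1 fell, as did 1 without the 5% of cells with most UMIs. In the fit of only the 4 sums 4 rose and 2 fell. Of MHC class II genes, 1 fell from thinned cells and 2 in the fit of only the 4 sums.

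The labels and headers do not say whether reads were counted by strand. Where a gene lies opposite another, as do Zg16 (Gm44939), Dusp1 (Ergic1), Selenop (Ccdc152), Sox4 (Gm26735), Ddit3 (Mars), Mybbp1a (Spns2), Kdelr3 (Ddx17), Irf7 (Phrf1) and Dll1 (A930024N18Rik), the reads of the pair could not be told apart with certainty.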

How the data were processed

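Crypt cells of the ileum were released with EDTA, dissociated with TrypLE and sorted as live Tom+ cells, and libraries were made with the 10x Genomics 3′ kit, per the labels' protocols. Reads were processed with Cell Ranger 3.0.2 and STAR on mm10, per the submitters' processing notes. For 31053 genes the deposited files give raw UMI counts per barcode, with no filter on cells. The authors' deposited cell table gives library, class, UMI and gene counts and the mitochondrial percent of each listed cell; the assignment of classes is not described there. The libraries held 66021021 and 40869800 UMIs, of which 32656481 and 27014983 lay in listed cells.

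Counts of the listed cells were added up per class and library, which gave 24 sums. In R 4.3.3, edgeR 4.0.16 fitted a robust quasi-likelihood model to the 10994 genes that filterByExpr kept, with class and library as terms (residual degrees of freedom 11, median biological coefficient of variation 0.0641). TMM factors used only genes averaging a log2 CPM of 6 or more. The contrast was GOBLET-PRE minus GP, with Benjamini-Hochberg adjustment over all genes and a threshold of 0.05. An SE is the change divided by the root of the F value. Both classes of a library come from the same sorted cells, and their differences between libraries correlated at 0.776 over 3827 genes, which are no independent replicates, so the library was kept as a block. Cells were thinned to 2000 UMIs, without replacement, for shares of cells, whose intervals are exact and 95%. No doublets were called, and the sources used here do not say whether the authors removed them; leaving out the 5% of cells with most UMIs was an alternative. Alternatives also changed scaling, filter, test (DESeq2 1.42.0), block and cells.

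Genes were named by rule: the 15 largest and 15 smallest changes with an adjusted p under 0.05, a mean log2 CPM of 5 or more and 1 direction in both libraries, without markers, mitochondrial, ribosomal protein, haemoglobin and unnamed genes; the 3 called members of each list with the smallest p; and a few always named (Atoh1, Spdef, Gfi1, Kit, Lgr5, Olfm4, Mki67, Apc, Ctnnb1, Sox9). Other named genes were chosen after their values were seen, 9 of the higher and 8 of the lower genes are cell type markers, and the classes and lists were chosen with earlier results of these data known. The script was tested on simulated data. A withheld item is not reported here. IDs and coordinates are from GENCODE M21 (mm10), and promoters from RefSeq (GRCm38.p6).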

Additional observations from a re-analysis of the deposited data

How the results depend on the processing

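Against 539 higher and 493 lower genes in GOBLET-PRE, DESeq2 gave 338 and 272, cells thinned to 2000 UMIs 309 and 257, no replicate block 64 and 52, and the replicate block with only the 4 sums of the 2 classes 1116 and 1325. Leaving out the 2 classes of 1 library gave 94 to 159 higher and 50 to 128 lower genes; the lone sums are then assumed to vary like the other classes. TMM over all genes (665 and 384), relative log expression factors (581 and 447), no low-count filter (530 and 463), at least 10 counts in each sum (530 and 512), no cells with a Mki67 or Top2a UMI (472 and 417), no cells in the top 5% by UMIs (535 and 486) and, chosen after seeing the data, no GOBLET and PANETH sums (584 and 428) stayed within 1.5 times. Of 84 named genes that passed, 67 did so with DESeq2, 34 with no block, 38 without replicate 1 and 49 without replicate 2, and 69 of the 83 still measured with thinned cells; under the other 8 alternatives 80 to 84 of the 81 to 84 still measured did, and none changed direction. GP made up 12.1% (mean of 2 libraries) of cells with at least 2000 UMIs, against 13.1 ± 0.238% (SD, n = 2) of all listed cells. Unthinned, the mean share of cells with a UMI was 94.0% in GOBLET-PRE and 77.4% in GP for Zg16, 9.13% and 16.3% for Mki67, 41.9% and 37.1% for Atoh1 and 15.3% and 7.11% for Areg. Depth limits genes at a few CPM, of which 1 UMI is found in only a small share of cells.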

Other observations

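Some further genes, chosen after their values were seen, passed the same edgeR test. The glutathione transferase Gsta4 had 53.5 and 61 CPM in GOBLET-PRE, against 7.37 and 9.70 CPM in GP (log2 change 2.75 ± 0.19 SE, adjusted p = 6.59e-21), and goblet cells had 544 and 681 CPM. Its relative Gsta1 had 10.4 and 11.6 CPM in GOBLET-PRE, against 0.762 and 0.970 CPM in GP. Fam3b, a secreted protein also known as PANDER, had 57.1 and 50.7 CPM in GOBLET-PRE, against 16 and 16.5 CPM in GP (log2 change 1.74 ± 0.16 SE, adjusted p = 4.12e-14), and the cytochrome P450 gene Cyp2c68 41.3 and 36.5 CPM in GOBLET-PRE, against 12.7 and 14.2 CPM in GP. Both GOBLET-PRE sums were the higher ones for each of these, and each was higher still in goblet cells. Lypd8, which keeps flagellated bacteria off the epithelium, had 2719 and 2786 CPM in GOBLET-PRE, against 1293 and 1536 CPM in GP, though it no longer passed without replicate 1 (log2 0.86) or without replicate 2 (1.06). Pglyrp1, which binds peptidoglycan, had 668 and 585 CPM in GOBLET-PRE, against 373 and 339.7 CPM in GP and no longer passed without replicate 1 (0.79). Lrrc26, a partner of large potassium channels, had 231 and 198 CPM in GOBLET-PRE, against 107 and 95.7 CPM in GP, and the gelsolin-like Scin 508 and 551 CPM in GOBLET-PRE, against 215 and 276 CPM in GP. Scin was lost without replicate 1 (log2 1.00) and without replicate 2 (1.23).

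On the lower side, Prelp, a matrix protein, had 2.64 and 2.90 CPM in GOBLET-PRE, against 10.2 and 15.8 CPM in GP (log2 change -2.12 ± 0.30 SE, adjusted p = 7.15e-07), and PANETH-PRE had 36.7 and 54.1 CPM. Trp53 had 19.9 and 20.3 CPM in GOBLET-PRE, against 35.1 and 34.6 CPM in GP and Myb, a factor of progenitor growth, 22.2 and 25.9 CPM in GOBLET-PRE, against 37.6 and 35.2 CPM in GP. Neither passed without replicate 1 (log2 -0.77 and -0.44). The metallothionein Mt2 had 5.74 and 5.97 CPM in GOBLET-PRE, against 16.3 and 11.3 CPM in GP and was also lost without replicate 1 (-0.91).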
